A study of Mus musculus with 4 samples.

Results

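The cytokine genes of the IL-12 family, Il12a, Il12b, Il23a, Il27 and Ebi3, together with Il10, Il15 and Il15ra, were followed in dendritic cells sorted by flow cytometry from the lamina propria of the mouse colon. They were chosen as 8 listed genes and matched by RefSeq accession, which found 7 of them, carried by 8 probes and 17 spots, among 20637 named genes on the arrays. Il12b, whose accession in the reference table is not among those of the array, was not analysed here. All mice were C57BL/6J. CD300a-deficient (KO) mice, which lack an inhibitory receptor for phosphatidylserine, and wild-type (WT) mice were kept germ-free (GF, labelled male) or under specific pathogen-free conditions (SPF, labelled female), which gives 4 groups of 1 array each, with cells from 5 mice per condition. Whether those mice were pooled, their age and the deleted allele are not given in the sources used here.

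Dendritic cells instruct T cells through these cytokines. The IL-12 family is built from paired subunits: Il12a encodes p35, which joins p40 of Il12b to form IL-12, Il23a encodes p19, which joins p40 to form IL-23, Il27 encodes p28, which joins the Ebi3 product to form IL-27, and p35 can also pair with the Ebi3 product as IL-35. IL-12 favours interferon-gamma-producing T cells and IL-23 sustains IL-17-producing cells, while IL-27 and IL-10 restrain inflammation. IL-15 is presented to lymphocytes on the IL-15 receptor alpha chain, encoded by Il15ra. Loss of IL-10 signalling causes colitis in mice, which makes these genes of interest in the gut.

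Values are log2 processed signals minus the 75th percentile of each array, called levels. Differences subtract WT from KO, or SPF from GF, on that log2 scale. Errors given with ± are the scanner software's own error estimate for the spot, converted to log2, and describe the spot and not the spread between mice. Since each group had 1 array, nothing here could be checked against replicates or tested. A probe of 1 gene cannot be set against a probe of another gene, so levels are ordered only across arrays. In sorted cells analysed in bulk, fewer cells of a type and less RNA per cell cannot be told apart. Both GF arrays lay on slide 2 and both SPF arrays on slide 1, so the effects of housing, slide, scan and labelled sex cannot be told apart.

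The libraries themselves showed limits. Between 13797 and 15055 of the named genes were well above background. Cd300a did not separate the KO-labelled from the WT arrays, with levels of 8.05 and 7.60 on the KO GF and WT GF arrays and 7.91 and 7.88 on the KO SPF and WT SPF arrays; whether its probe lies in the deleted part is not known here. Xist, a transcript of female cells, was at 3.62 on the KO GF array, labelled male, and below background on the WT GF array. The Y-linked gene Ddx3y was above background on both, at 0.59 for KO GF and 2.07 for WT GF, and on neither SPF array, as were both Uty probes, so the KO GF array carried transcripts of both kinds. The arrays are therefore called KO-labelled. Results of the GF pair, and those between housings in KO-labelled cells, rest on that KO GF array. All 9 dendritic cell markers listed, Itgax, Flt3, Zbtb46 and the class II genes H2-Ab1 and Cd74 among them, were above background on every array.

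Il10, which encodes the anti-inflammatory cytokine IL-10, varied most among these genes, over a range of 4.05. Its level was 1.41 on the KO GF array, 3.15 on the WT GF array, 5.46 on the KO SPF array and 4.07 on the WT SPF array. The KO-labelled array was thus the higher of the SPF pair and the lower of the GF pair. The Il10 probe stood on 10 spots of each array, whose levels ran from 1.29 to 1.54 for KO GF, from 3.10 to 3.26 for WT GF, from 5.32 to 5.58 for KO SPF and from 3.88 to 4.14 for WT SPF. The SD over these spots lay between 0.05 and 0.08. For probes with 5 or more spots and a level above 0, the median SD was 0.06 to 0.07 on the 4 arrays. Spots of an array share its RNA and are no replicates of a group.

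**Figure D1:**
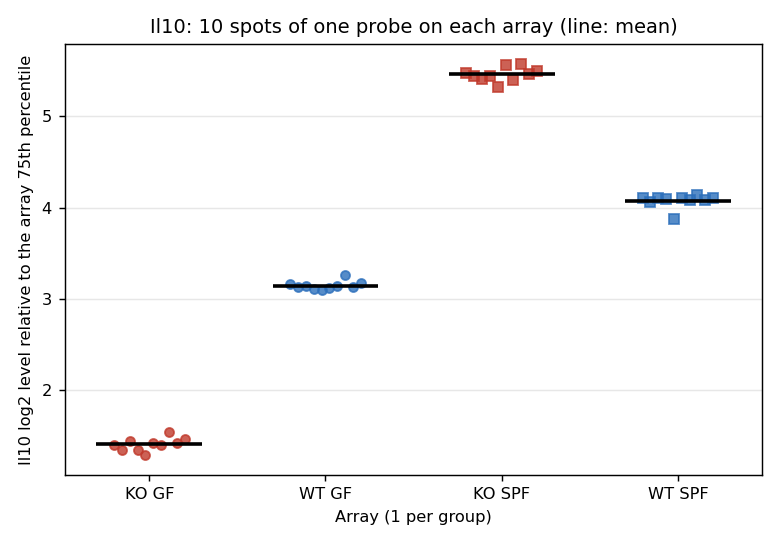
Il10 level on each of 10 spots per array (log2 relative to the array's 75th percentile, points) and their mean (line), for KO GF, WT GF, KO SPF and WT SPF. The mean was highest for KO SPF at 5.46 and lowest for KO GF at 1.41.

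Under SPF housing the Il10 difference, KO minus WT, was 1.39 ± 0.20, a 2.61-fold higher signal on the KO-labelled array. Under GF housing it was -1.74 ± 0.20, a 3.34-fold lower signal. Background shares depend on signal. In the signal quartile that holds Il10, the top one, 2.64% of genes were higher by 2-fold or more in the SPF pair and 7.66% lower in the GF pair, where the quartile's median difference was -0.43. Between housings, GF minus SPF, Il10 differed by -4.05 ± 0.20 in KO-labelled cells, a 16.6-fold lower signal on the GF array, and by -0.93 ± 0.20 in WT cells. The WT value came to -1.06 once the median of all genes was subtracted. In the top quartile 19.7% of genes were lower by 2-fold or more between housings in KO-labelled cells and 5.56% in WT cells. The quartile's median difference was -0.27 in KO-labelled cells.

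Among IL-12 family subunits, Il23a, encoding p19 of IL-23, was at a like level on the other arrays but not well above background on the KO GF array, where its measured signal was -3.79 ± 0.36. It read -1.97 ± 0.17 for WT GF, -1.85 ± 0.17 for KO SPF and -2.28 ± 0.17 for WT SPF. By measured signal the KO-labelled GF array was 3.54-fold lower than the WT GF array (-1.82 ± 0.40). It was 3.85-fold lower than the KO SPF array (-1.94 ± 0.40). With normexp background correction the same differences were -0.51 and -0.66, both under 2-fold. The Il23a difference between KO-labelled and WT cells under SPF housing was 0.44 ± 0.24. Il23a lay in signal quartile 2, counted from the dimmest. There 8.36% of genes were lower by 2-fold or more in the GF pair and 11.9% between housings in KO-labelled cells.

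Ebi3, the beta subunit shared by IL-27 and IL-35, followed the same direction with smaller values. Its level was 2.32 on the KO GF array, 3.43 on the WT GF array, 3.27 on the KO SPF array and 2.98 on the WT SPF array. KO GF was the lowest of the 4 arrays. KO minus WT was -1.11 ± 0.20 under GF housing, a 2.16-fold lower signal, and 0.29 ± 0.20 under SPF housing. Relative to the median of all genes, which was -0.20 in the GF pair, Ebi3 stood at -0.91, under 2-fold, and it was also under 2-fold with quantile (-0.84), cyclic loess (-0.75) and deposited-table (-0.83) scaling. GF minus SPF was -0.95 in KO-labelled and 0.46 in WT cells.

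Il27, encoding p28, the partner of the Ebi3 product, ran the other way. It was at 1.04 on the KO GF array, 0.51 on the WT GF array, -0.05 on the KO SPF array and 0.23 on the WT SPF array. KO GF was the highest array for Il27, where it was the lowest for Ebi3. KO minus WT was 0.53 ± 0.20 under GF housing and -0.28 ± 0.21 under SPF housing, both under 2-fold. GF minus SPF was 1.09 ± 0.21 in KO-labelled cells, 2.12-fold higher on the GF array, and 0.27 ± 0.21 in WT cells. With normexp the KO-labelled value was 0.91.

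Il12a, encoding p35, was near the detection limit. It was above background on the GF arrays, at -3.56 ± 0.28 for KO GF and -3.20 ± 0.23 for WT GF, and on neither SPF array. The GF genotype difference of -0.36 ± 0.37 was within the scanner error. Against the dim SPF arrays, the GF signal was at least 1.23-fold higher in KO-labelled and at least 1.93-fold higher in WT cells. With normexp these housing differences were -0.0076 in KO-labelled and 0.15 in WT cells, so neither bound held, whereas with the deposited table the KO-labelled value was 1.30. No genotype difference is given for the SPF pair.

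**Figure D2:**
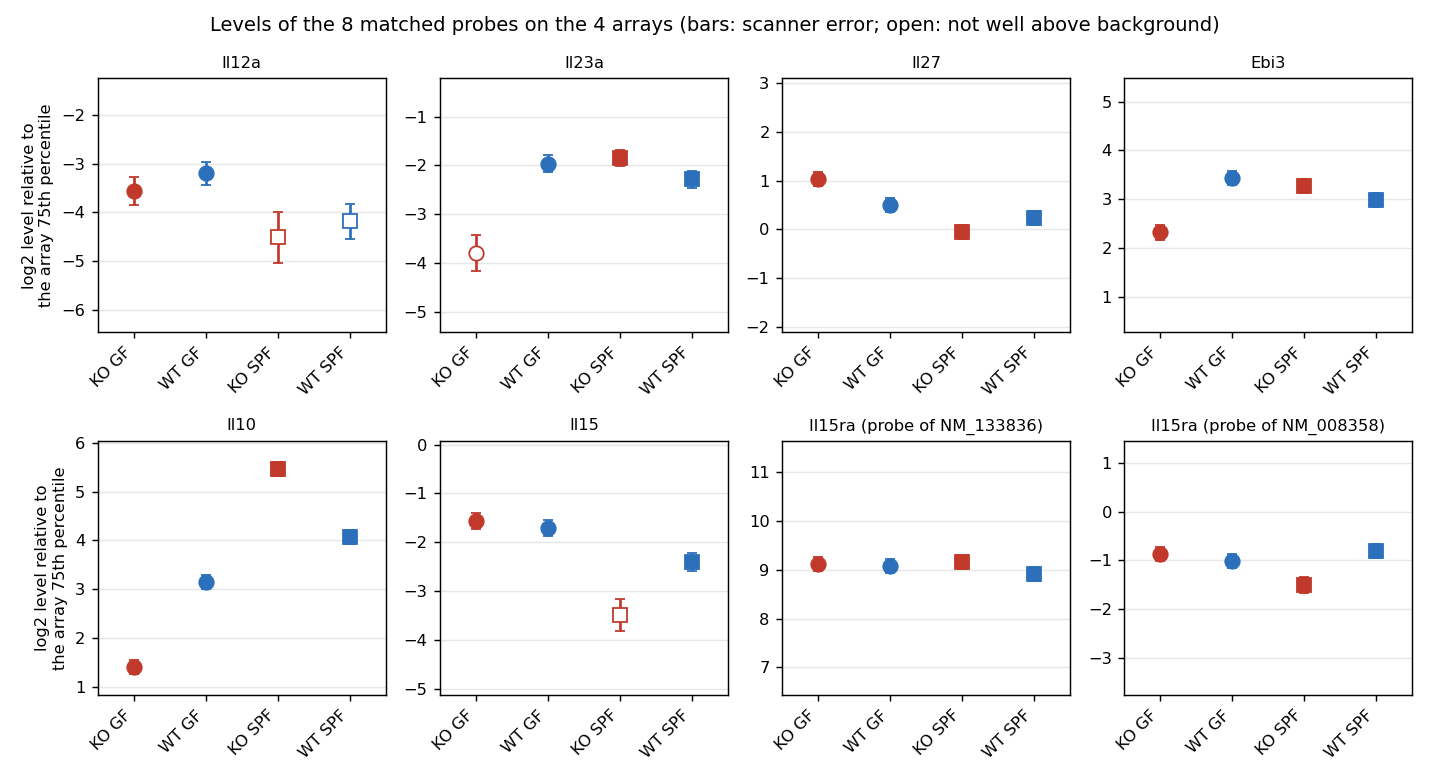
Level of each of the 8 matched probes (log2 relative to the array's 75th percentile) on the KO GF, WT GF, KO SPF and WT SPF arrays. Bars are the scanner error, open symbols are signals not well above background, and every panel spans the same log2 range. Il10 spreads over 4.05, whereas the brighter Il15ra probe spreads over 0.24.

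Il15, encoding the cytokine that IL-15 receptor alpha presents, was above background on all arrays except KO SPF. It read -1.57 ± 0.16 for KO GF, -1.71 ± 0.16 for WT GF and -2.41 ± 0.18 for WT SPF, and had a measured signal of -3.49 ± 0.33 on the KO SPF array. By measured signal the KO SPF array was 2.12-fold lower than the WT SPF array (-1.08 ± 0.37). The KO GF array was 3.79-fold higher than the KO SPF array (1.92 ± 0.36). The genotype difference of the GF pair was 0.14 ± 0.23. The SPF value did not hold at 2-fold with quantile (-0.98), cyclic loess (-0.99) or normexp (-0.22), and with normexp the KO-labelled housing difference was 0.52. Il15 also lay in signal quartile 2. There 13.8% of genes were lower by 2-fold or more in the SPF pair, and 35.9% higher on the GF array in KO-labelled cells.

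Il15ra was carried by 2 probes that did not move alike. The probe of NM_133836 stood at 9.13 on the KO GF array, 9.08 on the WT GF array, 9.16 on the KO SPF array and 8.92 on the WT SPF array. It did not reach a 2-fold difference in any of the 4 comparisons, and its largest difference was 0.24 ± 0.20, KO minus WT under SPF housing. The probe of NM_008358 stood at -0.87, -1.01, -1.51 and -0.80 on the same arrays in that order. Its SPF genotype difference was -0.70 ± 0.22, opposite in sign to that of the other probe, and the mean of both probes gave -0.23. Between housings in KO-labelled cells it differed by 0.63 ± 0.22. On the dimmer probe KO SPF was the lowest array, as it was for Il15.

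Promoter windows, from 250 bases before to 50 bases after the start of transcription, were available from RefSeq (GRCm38.p6) for 3 of the measured genes, Il12a, Ebi3 and Il15ra, with 5 windows in all. They are shown for Ebi3, a gene at least 2-fold different in the GF pair, and for the pair of start sites of Il15ra, a gene whose probes differed. Which start site belongs to which probe is not known here. Letters are 5′ to 3′ on the plus strand, and capitals mark a motif match.
Ebi3, chr17:55952373-55952672: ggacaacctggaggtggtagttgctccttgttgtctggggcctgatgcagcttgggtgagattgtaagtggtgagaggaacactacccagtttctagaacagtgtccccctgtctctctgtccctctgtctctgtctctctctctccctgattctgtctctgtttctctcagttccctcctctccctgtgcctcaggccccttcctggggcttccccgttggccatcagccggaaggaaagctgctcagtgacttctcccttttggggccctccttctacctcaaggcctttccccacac
Il15ra, chr2:11705043-11705342: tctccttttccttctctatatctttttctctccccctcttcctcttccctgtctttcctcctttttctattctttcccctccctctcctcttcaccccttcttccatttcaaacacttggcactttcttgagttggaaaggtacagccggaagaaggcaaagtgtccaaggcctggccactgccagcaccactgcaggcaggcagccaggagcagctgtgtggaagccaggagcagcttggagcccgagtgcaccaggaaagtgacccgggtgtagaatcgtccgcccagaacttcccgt
Il15ra, chr2:11705462-11705761: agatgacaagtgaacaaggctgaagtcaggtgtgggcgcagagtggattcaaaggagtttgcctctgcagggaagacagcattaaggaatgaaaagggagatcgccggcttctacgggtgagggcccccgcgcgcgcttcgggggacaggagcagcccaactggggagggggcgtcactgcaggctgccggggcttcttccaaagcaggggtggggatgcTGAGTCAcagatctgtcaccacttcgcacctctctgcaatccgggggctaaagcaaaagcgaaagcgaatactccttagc

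The motifs searched on both strands were an NF-kappaB site (in 1.63% of 32851 promoter windows), an interferon-stimulated response element core (3.44%), the STAT site TTCNNNGAA (8.30%) and the AP-1 site TGANTCA (7.81%). The downstream Il15ra window held 1 AP-1 match, at bases -30 to -24 from the start. None of these letter patterns occurred in the other 4 windows. A match is a pattern of letters and not a bound site.

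Counted together, 6 genes were measured in the SPF pair, of which 1 passed 2-fold upward on the KO-labelled array (Il10) and 1 downward (Il15). In that pair 5.61% of all 14877 measured genes passed upward and 6.61% downward, 12.2% either way. In the GF pair 0 of 7 genes were higher and 3 lower (Il10, Il23a and Ebi3), where 8.8% and 7.77% of 15697 genes were, 16.6% either way. The median of the cytokine genes was 0.27 in the SPF pair and -0.36 in the GF pair, against -0.06 and -0.20 for all measured genes. With so few genes the counts are a description only.

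Between housings, 2 of 7 genes in KO-labelled cells were higher on the GF array by 2-fold or more (Il15 and Il27) and 2 lower (Il10 and Il23a), where 21.6% and 15.4% of 15572 measured genes were, 37% either way. In WT cells 0 of 7 genes reached 2-fold, where 17.5% of 15656 genes were higher and 9.44% lower, 26.9% either way. The median of the cytokine genes was -0.03 in KO-labelled and 0.32 in WT cells, against 0.05 and 0.13 for all measured genes. The split of all genes depended on processing. In the SPF pair 1.20% were higher and 0.618% lower with normexp, and 3.60% and 2.78% among genes above background on both arrays. In the GF pair 14.6% and 3.64% were with the deposited table and 12.8% and 4.53% after the median of all genes was subtracted. In KO-labelled cells between housings the deposited table gave 29.6% and 9.64%, and genes above background on both arrays gave 14.1% and 15.1%.

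The genotype differences of both housings rest on separate arrays. Il10 had a difference of differences, SPF minus GF, of 3.13 ± 0.29. It exceeded that of all but 20 of the other genes above background on all 4 arrays, of 12884 in all, whose median was 0.18. Of the other genes above background on all 4 arrays, the value was 1.41 ± 0.29 for Ebi3, -0.81 ± 0.29 for Il27 and 0.20 ± 0.29 for the brighter Il15ra probe. Il23a and Il15 were below background on 1 array each, so their measured values of 2.26 and -1.23 contain a dim signal, and with normexp they were 0.66 and -0.25. With 1 array per group these gaps could not be tested.

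**Figure D3:**
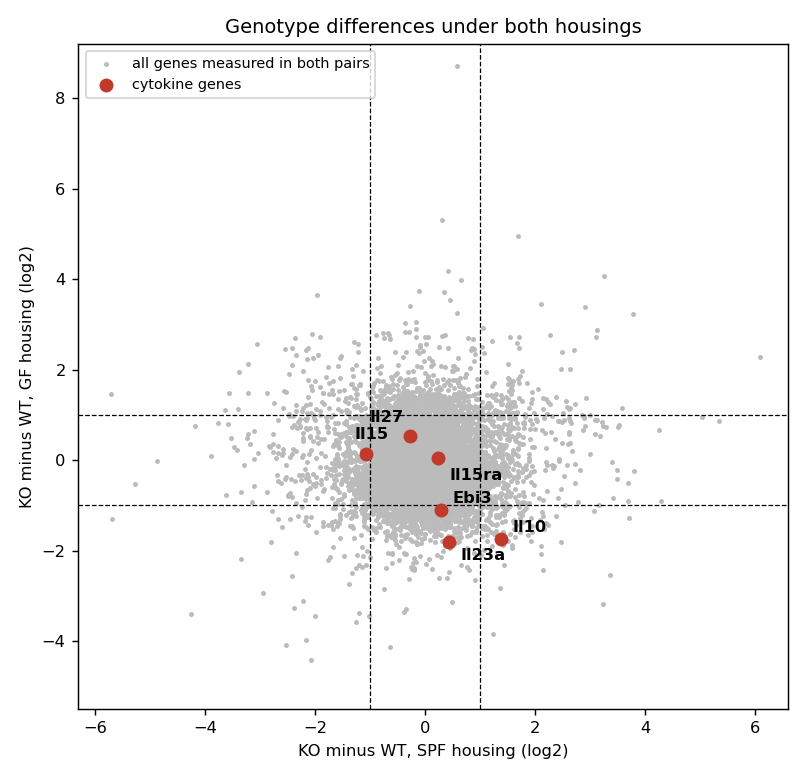
KO minus WT difference under SPF housing (x axis, log2) and under GF housing (y axis, log2) for 14202 genes measured in both pairs (grey) and 6 cytokine genes (red); dashed lines mark 2-fold. Il10 lies at 1.39 and -1.74, in the lower right field; Il23a and Il15 each include 1 array below background, and Il12a is not drawn because it was not above background in the SPF pair.

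The genes most like Il10 across the 4 arrays, by the root mean square difference of levels centred per gene, were Mmp19, a matrix metalloproteinase gene (0.08), Hilpda, a hypoxia-induced lipid droplet gene (0.10), and Dnah2, an axonemal dynein gene (0.15). Hilpda stood at 1.25 on the KO GF array, 3.11 on the WT GF array, 5.21 on the KO SPF array and 3.79 on the WT SPF array. Its order of arrays was the order of Il10. For Ebi3 they were Pramel12 (0.01), the histone acetyltransferase gene Hat1 (0.04) and the pyruvate dehydrogenase kinase gene Pdk3 (0.05). With 4 arrays such likeness is a description only.

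Receptor chains for these cytokines were measured in the same cells. In the GF pair 1 of 9 chains was higher on the KO-labelled array and 4 lower, by measured differences of 2-fold or more. Over all measured genes 8.8% were higher and 7.77% lower there. The median of the chains was -0.99, against -0.20 for all measured genes. In the SPF pair 1 of 9 was higher and 1 lower, where 5.61% and 6.61% of all genes were. Il2rg, the common gamma chain used by IL-15, was at 3.38 on the KO GF array and 4.68 on the WT GF array, a difference of -1.29. Il10rb, the second chain of the IL-10 receptor, differed by -1.05 and Il10ra, the ligand-binding chain, by -0.99 in the same pair. The receptor chains of IL-23 and IL-27 were dim. Il23r was above background on the KO-labelled arrays only, at least 1.83-fold higher under SPF and at least 5.25-fold higher under GF housing. Il27ra was above background on the WT arrays only, at least 1.78-fold lower under SPF and at least 1.73-fold lower under GF housing on the KO-labelled arrays, bounds under 2-fold although the measured differences passed it. Il12rb1, shared by the IL-12 and IL-23 receptors, was 2.21-fold lower by measured signal in the GF pair, with KO GF below background. Between housings in WT cells 1 of 8 measured chains, Il6st, which encodes the gp130 chain of the IL-27 receptor, was higher on the GF array, with levels of 3.61 for GF and 2.51 for SPF, and 0 were lower. In KO-labelled cells 1 of 8 was higher (Il23r, 1.71) and 2 lower (Il2rb, -1.39, and Il2rg, -1.16). Between housings 21.6% of all measured genes were higher and 15.4% lower in KO-labelled cells, and 17.5% and 9.44% in WT cells.

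Downstream of the receptors, Stat4, which transmits IL-12 and IL-23 signals, had the direction of Il10 in both pairs. Its level was -2.37 on the KO GF array, -0.98 on the WT GF array, 1.50 on the KO SPF array and -0.11 on the WT SPF array. Of 13 Janus kinase, STAT and SOCS genes, 1 was at least 2-fold higher (Stat4, 1.61) and 0 lower in the SPF pair, and 0 were higher and 2 lower in the GF pair (Stat4, -1.39, and Socs1, -1.03). Of all measured genes 5.61% were higher and 6.61% lower in the SPF pair, and 8.8% and 7.77% in the GF pair. Between housings 8 of the 13 listed genes were lower on the GF array in KO-labelled cells and 1 in WT cells. Over all measured genes 15.4% and 9.44% were lower. Stat3, which carries the IL-10 signal, had differences of -2.05 in KO-labelled and -1.25 in WT cells, and its other probe gave -2.11 and -1.43. Other probes did not always side with the counted ones. Another Jak3 probe gave 1.74 in the SPF pair, against -0.29 for the counted probe, and 1.22 between housings in WT cells. Another Stat5b probe gave -1.13 in the GF pair, and other Socs2 probes gave -1.06 and -1.24 between housings in KO-labelled cells. The list medians between housings were -1.08 in KO-labelled and -0.36 in WT cells, against 0.05 and 0.13 for all measured genes.

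Of 20 transcriptional regulators of these cytokine genes, 1 was at least 2-fold higher in the SPF pair, Rel (1.32), which encodes the NF-kappaB subunit c-Rel, and 0 were lower. In the GF pair 0 were higher and 5 lower, among them Cebpb (-1.35), Batf (-1.35), Batf3 (-1.16), a factor of type 1 dendritic cells, and the myeloid factor gene Spi1 (-1.06). The list median was -0.77 in the GF pair and 0.11 in the SPF pair, against -0.20 and -0.06 for all measured genes. In the top signal quartile the median was -0.43 in the GF pair. Of all measured genes 8.8% were higher and 7.77% lower in the GF pair, and 5.61% and 6.61% in the SPF pair. Between housings 11 of 20 regulators were lower in KO-labelled cells, where 15.4% of all genes were, with Nfkb1 at -2.77 and Spi1 at -2.77. In WT cells 2 were higher (Irf4, 1.21, and Atf3, 1.07) and 2 lower (Nfkb1, -1.81, and Spi1, -1.71). Of all measured genes 17.5% were higher and 9.44% lower in WT cells. Another Irf1 probe gave 2.14 between housings in KO-labelled cells, against 0.19 for the counted probe.

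**Figure D4:**
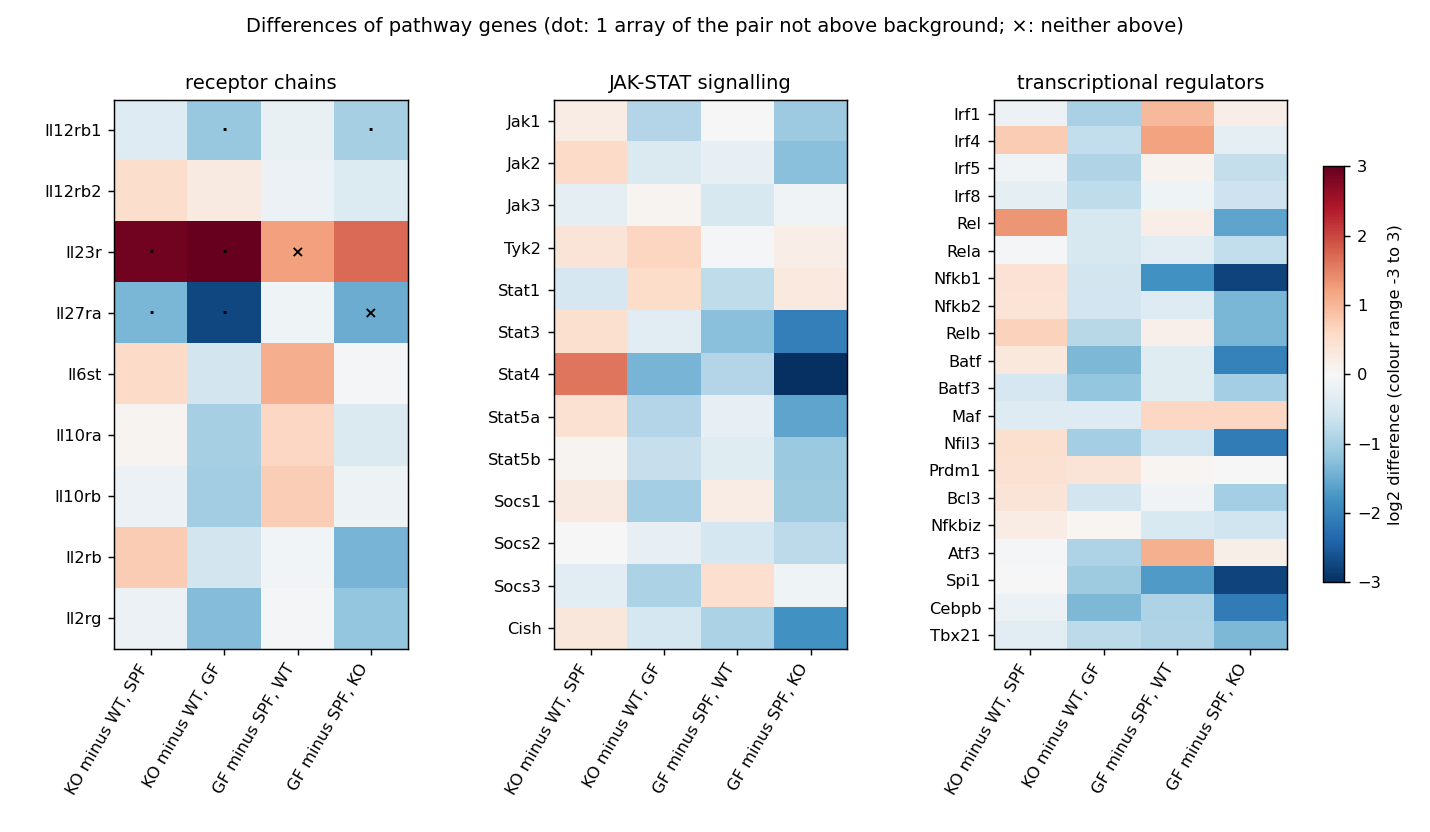
Log2 differences of 9 receptor chain genes, 13 JAK-STAT signalling genes and 20 transcriptional regulators in 4 comparisons (columns), coloured from -3 (blue) to 3 (red). Blue prevails in the GF minus SPF column of KO-labelled cells, where 8 of 13 signalling genes and 11 of 20 regulators were at least 2-fold lower. Of all measured genes 15.4% were at least 2-fold lower in that comparison.

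Among IL-10 family members and genes known as IL-10 targets, 1 of 10 measured genes was at least 2-fold higher in the SPF pair, the repressor gene Etv3 (1.08), and 0 were lower. In the GF pair 0 of 11 were higher and 1 lower, Nfil3 (-1.02), which encodes a transcription factor induced by IL-10. Between housings in KO-labelled cells 5 of 11 were lower, with Il1rn, the IL-1 receptor antagonist gene, at -3.75, Ddit4 at -2.29, Nfil3 at -2.09 and Etv3 at -2.01, and 1 was higher (Il22). In WT cells 2 were lower, Il1rn (-2.08) and Ddit4 (-1.73), and 2 higher, both IL-10 family genes: Il22 (1.58), and Il19, for which the bound was at least 1.70-fold. Socs3, an early IL-10 target, was under 2-fold in all 4 comparisons. Of all measured genes 5.61% were higher and 6.61% lower in the SPF pair, and 8.8% and 7.77% in the GF pair. Between housings 21.6% were higher and 15.4% lower in KO-labelled cells, and 17.5% and 9.44% in WT cells.

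Markers of cell types also differed between the arrays, not all in the direction of these genes, and their part in the results was not tested. The summed signal of 9 dendritic cell markers, in units of the array's 75th percentile, was 333.7 on the KO GF array, 547.0 on the WT GF array, 775.4 on the KO SPF array and 740.7 on the WT SPF array. The sum rests mainly on the brightest of them, Cd74 and H2-Ab1. The sums had the array order of Il10. Taken gene by gene, the median difference of the 9 markers was 0.33 in the SPF pair and -0.81 in the GF pair. All measured genes had -0.06 and -0.20. Between housings, GF minus SPF, the marker median was -1.23 in KO-labelled and -0.12 in WT cells, against 0.05 and 0.13. Of these markers 3 were at least 2-fold lower in the GF pair (Itgax, Ccr7 and Btla) and 2 higher in the SPF pair (Zbtb46 and Ccr7). Another Zbtb46 probe gave 0.92 in the SPF pair. Over all measured genes 7.77% were lower in the GF pair and 5.61% higher in the SPF pair. Between housings 7 of the 9 markers were lower on the GF array in KO-labelled cells, all except Dpp4 and Kit. Other probes of Flt3 and H2-Ab1 gave -0.99 and -0.95 there. In WT cells 1 was lower (Itgax), and 0 were higher in either genotype. Of all measured genes 15.4% were lower in KO-labelled and 9.44% in WT cells. For 11 macrophage and monocyte markers, cells that also make IL-10 in the gut, the sums were 311.1 and 566.7 on the KO GF and WT GF arrays and 549.7 and 645.0 on the KO SPF and WT SPF arrays.

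B cells and plasma cells can also make IL-10. Their 9 markers summed to 6.54 on the KO GF array, 5.61 on the WT GF array, 102.6 on the KO SPF array and 24.9 on the WT SPF array. In the SPF pair 5 of 8 measured markers differed upward by 2-fold or more on the KO-labelled array, where 5.61% of all genes did. T cell markers summed to 24.9 and 39.3 on the KO GF and WT GF arrays and to 12.7 and 11.7 on the KO SPF and WT SPF arrays, and Cd8a was not above background on any. Innate lymphoid and natural killer cell markers summed to 5.89 and 5.74 on the KO GF and WT GF arrays and to 22.3 and 7.71 on the KO SPF and WT SPF arrays, with Ncr1 and Gata3 not above background on any.

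Epithelial cells, which also express Il15, gave the widest contrast between housings. Their 10 markers summed to 247.6 and 177.0 on the KO GF and WT GF arrays and to 6.26 and 3.66 on the KO SPF and WT SPF arrays. All 10 were at least 2-fold higher on the GF array in both genotypes. Over all measured genes 21.6% were in KO-labelled and 17.5% in WT cells. Type 1 conventional dendritic cell markers summed to 7.99 and 14.5 on the KO GF and WT GF arrays and to 13.7 and 16.7 on the KO SPF and WT SPF arrays, with Xcr1 below background on both GF arrays. Type 2 markers summed to 424.6 and 491.9 under GF and 672.1 and 658.2 under SPF housing, KO-labelled array first in each pair. The sums of fibroblast and endothelial markers spanned 12.1 to 23.2 and 7.94 to 14.6 over the 4 arrays. The neutrophil and eosinophil sum spanned 193.4 to 341.5 and rested mainly on Csf3r, which was under 2-fold in every comparison. Between housings in KO-labelled cells 4 of 6 measured markers were lower on the GF array and 1 higher, with a list median of -2.36. Over all measured genes 15.4% were lower and 21.6% higher. The granulocyte gene S100a9 was at least 9.81-fold lower and the eosinophil gene Siglecf differed by -2.03. Mpo and Epx, also counted as lower, had bounds under 2-fold (1.40 and 1.71). Elane, counted as higher, had a bound of 1.96-fold. In the genotype pairs S100a9 was lower on the KO-labelled array in both. It was at least 4.12-fold lower under GF housing and differed by -2.01 under SPF housing, where Il10 was higher. In the SPF pair 3 of 7 measured markers were lower and 2 higher, where 6.61% and 5.61% of all genes were. The higher ones, Mpo and Epx, had bounds under 2-fold (1.60 and 1.97). In the GF pair 2 of 4 were lower, where 7.77% of all genes were, and Elane was under 2-fold at 0.98.

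**Figure D5:**
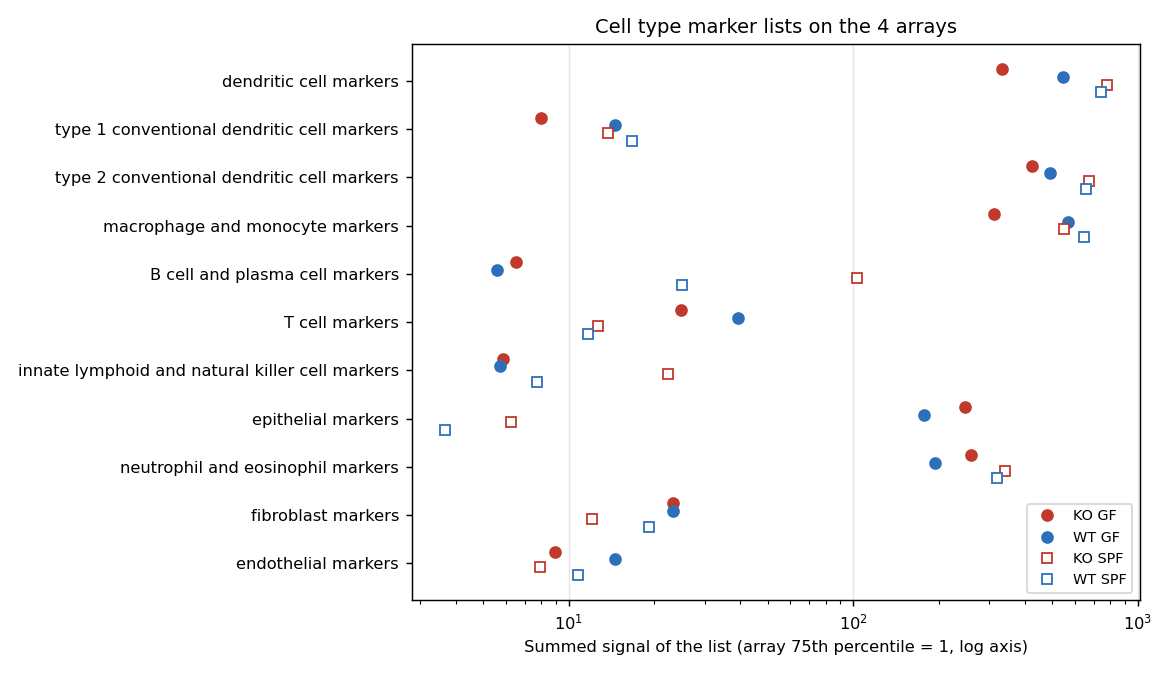
Summed signal of 11 cell type marker lists (x axis, array 75th percentile set to 1, log axis) on the KO GF, WT GF, KO SPF and WT SPF arrays. Epithelial markers separate the GF from the SPF arrays, and B cell and plasma cell markers are highest on the KO SPF array at 102.6.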

How the data were processed

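Each group had 1 one-colour Agilent array. Per the file headers, the deposited scanner files hold background-subtracted processed signal intensity from Feature Extraction 10.10.1.1 (protocol GE1_1010_Sep10, design build mm9), with raw spot medians, an error estimate and flags. The deposited series table holds intensity equal to that signal scaled by 1 factor per array (7.96 for KO GF, 7.08 for WT GF, 8.24 for KO SPF, 8.30 for WT SPF), with column medians of 331.4, 235.7, 216.3 and 237.2; it is linear and uncentred, and the rule behind its factors stays unknown.

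From these, log2 intensity minus each array's 75th percentile was computed here. Control spots (3671) and outlier-flagged spots were left out, spots of a probe were averaged, 84 probes with no usable spot on an array were dropped, and the brightest probe stood for a gene. No spot was saturated. Accessions were named through RefSeq GRCm38.p6: 27191 of 55597 probes had 1 name, 28387 none and 19 conflicting names. A probe was above background where at least as many of its spots carried the software's flag as did not. Where 1 array of a pair was below background, the fold sets the bright level against the dim probe's level or the dim array's lowest above-background level, whichever is higher. It is called a lower bound where that lowest level was used, and is otherwise the measured fold. Genes above background on at least 1 array of a pair were measured, and a measured difference of at least 2-fold counted as different, also where the bound is smaller.

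All cytokine genes are named; of each pathway list, genes above background on both arrays and at least 2-fold different, up to 4 per comparison, and others where a count is small, chosen after values were seen. Members and lists were chosen with earlier results of these data known. The call rule was tested on simulated data. Alternatives were normexp (limma 3.58.1, R 4.3.3, offset 50) on median signals, used in place of the mean signals planned, quantile, cyclic loess, the deposited table, background filters, probe averaging and flagged spots. Figures used Python 3.11.15 and matplotlib 3.10.9.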

Additional observations from a re-analysis of the deposited data

Results flagged for a closer look

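Il10, Ebi3 and Il27, all above background on the 4 arrays, had genotype differences of opposite sign under SPF and GF housing. The gap between both differences, SPF minus GF, was 3.13 for Il10, 1.41 for Ebi3 and -0.81 for Il27. Il10 was higher on the KO-labelled array under SPF housing and lower under GF housing, as was Ebi3, and Il27 had the reverse signs. Under SPF housing the differences of Ebi3 (0.29 ± 0.20) and Il27 (-0.28 ± 0.21) were under 2-fold and close to the scanner error. The gaps between the genotype differences were not tested, since each group has 1 array. The housings also differ in slide, scan and labelled sex.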

How the results depend on the processing

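No paired analysis was possible because each group has 1 array and the labels carry no replicate numbers, and no replicate could be left out. Of 72 recomputed counts of members past 2-fold, 63 stayed within 1.5 times. The count of members lower in the SPF pair, 1 as reported, was 0 with normexp, quantile, cyclic loess and genes above background on both arrays, since Il15 missed 2-fold or was left out. Between housings in KO-labelled cells the 2 higher members became 0 with normexp and 1 with genes above background on both arrays, and the 2 lower members became 1 under both. The same counts were 3 higher with the deposited table, which adds Il12a (1.30), and 3 lower after the median of all genes was subtracted, which adds Ebi3 (-1.003). In WT cells 1 member, Il10, was lower once the median of all genes was subtracted, an alternative chosen after seeing the data. No difference of at least 2-fold changed sign in any of the 297 recomputed single values, of which 15 no longer reached 2-fold and 4 newly did. The Il10 differences ranged from 1.19 to 1.45 in the SPF pair, from -1.74 to -1.36 in the GF pair and from -4.11 to -3.68 between housings in KO-labelled cells. Normexp shrank dim genes most: Il23a in the GF pair was -0.51 in place of -1.82. The number of arrays limits precision throughout.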

Other observations

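Other cytokines that direct T cells were listed as 20 genes. Of 17 measured in the SPF pair, 4 were higher on the KO-labelled array by 2-fold or more and 5 lower, where 5.61% and 6.61% of all genes were. Of the 5 lower, Il4 was at least 3.55-fold lower, whereas Il33, Tgfb2, Il17f and Il2 were dim, with bounds under 2-fold (1.94, 1.73, 1.13 and 1.08). The higher ones were Il6 (2.20), which with TGF-beta drives IL-17-producing T cells, Tgfb3 (1.51), Il1a (1.43) and Tnfsf15 (1.02), which encodes TL1A. In the GF pair 1 of 16 was higher and 8 were lower, where 8.8% and 7.77% of all genes were, and among the lower were Tnf (-1.50), Il6 (-1.39), Tslp (-1.14) and Il1b (-1.12). The bounds of Tnfsf4, Il4 and Ifng, also counted as lower there, were under 2-fold. Il6 stood at 0.01 on the KO GF array, 1.40 on the WT GF array, 2.86 on the KO SPF array and 0.66 on the WT SPF array, which puts the KO-labelled arrays at both ends, as for Il10.

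Between housings in KO-labelled cells 6 of 15 were higher and 8 lower on the GF array, where 21.6% and 15.4% of all genes were, with Tgfb3 at -3.27, Il6 at -2.85 and Il1b at -2.47 below and Tslp, an epithelial cytokine gene, at 2.23 above. Dim genes counted there had bounds under 2-fold, Il33 (1.22) and Il17a (1.06) among the higher and Ifng (1.84) among the lower. In WT cells 4 of 19 were higher and 6 lower, where 17.5% and 9.44% of all genes were. Tslp was at 3.24, Il22 at 1.58, Tgfb3 at -1.80 and Il4 at -1.55. Of the 6 lower in WT cells, Tgfb2, Il17f and Il2 were dim, with bounds under 2-fold (1.86, 1.21 and 1.16). Epithelial markers were higher on the GF arrays in both genotypes, and their part in the Tslp values was not tested.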
